A study of Homo sapiens with 15 samples.

Results

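A set of 10 genes of the extracellular matrix was followed through 15 RNA sequencing libraries of HT-1080, a cell line from a human fibrosarcoma. They were picked by gene symbol: the proteoglycans VCAN (versican), LUM (lumican), DCN (decorin) and BGN (biglycan), the adhesive glycoprotein FN1 (fibronectin), the matricellular proteins TNC (tenascin C), THBS1 and THBS2 (thrombospondin 1 and 2) and SPARC, and LRRC17, a secreted leucine-rich repeat protein. Each of the 10 symbols matched 1 of the 60670 genes in the count table. Libraries came in 5 groups of 3. Cycling cells received the vehicle DMSO and carry a time label of 6 h. Senescent cells expressed a dominant negative mutant of TRF2, a telomere-binding protein, for 6 days, and then received DMSO or 1 uM of the kinase inhibitor GNF-7 for 6 h or 24 h. All groups were grown in medium with tet-free serum. The labels do not name the promoter that drives the mutant, say whether the cells are a single clone, or say whether cycling cells carry the construct. All results therefore concern 1 cell line and 1 way of inducing senescence. The libraries are called biological replicates but are not said to be separate cultures, so p-values measure only the spread between these libraries.

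The matrix outside a cell is a mesh of fibrous proteins filled with proteoglycans, which are proteins that carry long sulfated sugar chains. Versican is a large proteoglycan that binds hyaluronan. Lumican, decorin and biglycan are small leucine-rich proteoglycans that bind collagen fibrils, and decorin and biglycan also bind TGF-beta. Fibronectin forms fibrils that cells grip through integrins. Tenascin C, the thrombospondins and SPARC are matricellular: they are secreted into the matrix but mainly alter how cells attach, move and receive growth factor signals. Thrombospondin 1 can release TGF-beta from its latent complex. Fibroblasts and sarcoma cells are typical sources of these proteins, and matrix proteins are among what senescent cells secrete.

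Library totals ranged from 25991007 to 32323393 counts. TERF2, the gene of TRF2, was at 55.7 to 62.4 CPM (counts scaled to library size, with edgeR's correction for composition) in cycling cells and at 278 to 293 CPM in senescent DMSO cells at 6 h. It was at 212 to 227 CPM with GNF-7 at 6 h, at 212 to 226 CPM in DMSO at 24 h and at 128 to 138 CPM with GNF-7 at 24 h. TERF2 was thus lower with GNF-7 at both times, with no overlap of libraries, and its part in the changes of the matrix genes was not tested. Reads of the mutant and of the cell's own transcript are added together there. Of 10 markers of mesenchymal cells 8 or 9 reached 1 CPM in each group, led by VIM at 3346 to 4499 CPM, while THY1 had no count in any library. Of 7 epithelial markers 4 reached 1 CPM with GNF-7 at 24 h and 2 in each other group. KRT8 and KRT18 were above 140 CPM throughout, whereas EPCAM had at most 7 counts in a library. Markers of blood cells summed to at most 6.24 CPM and those of endothelium to at most 2.67 CPM. Mitochondrial genes took a share that moved with the groups, from 4.32% in cycling cells to 11.7% and 14.1% in senescent cells at 6 h (DMSO and GNF-7) and 16.9% and 23.3% at 24 h. With mitochondrial genes left out of the scaling, the 24 h GNF-7 changes of the matrix genes were as large: -2.96 for THBS1, -2.39 for SPARC and -0.30 for THBS2 on the log2 scale. In these bulk libraries fewer cells that make a transcript and less of it per cell cannot be told apart.

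The 10 genes together took 0.422 ± 0.0116% (SD, n = 3) of all counts in cycling cells and 0.669 ± 0.0321% in senescent cells in DMSO at 6 h. After GNF-7 the share was 0.516 ± 0.0358% at 6 h. At 24 h it was 0.589 ± 0.0414% in DMSO and 0.184 ± 0.00453% in GNF-7. The share of the 3 GNF-7 libraries at 24 h lay below that of every other library, cycling ones included. SPARC, FN1 and THBS1 supplied most of these counts, and SPARC alone supplied 42.1% of them in cycling cells, 53.3% in DMSO at 24 h and 33.3% in GNF-7 at 24 h.

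Levels of different genes were compared per kilobase of annotated exon (GENCODE release 29). That length merges the exons of all transcripts of a gene, and the order depends on it. By mean CPM alone FN1 (860) stood above SPARC (623) with GNF-7 at 24 h, and DCN (0.245) above BGN (0.108) with GNF-7 at 6 h. In cycling cells the order was SPARC at 386 CPM per kb, THBS1 at 129, FN1 at 65.0, THBS2 at 24.5, LRRC17 at 11.2, TNC at 6.92, VCAN at 0.213, BGN at 0.0852, LUM at 0.0569 and DCN at 0.00402. Only BGN and LUM, neighbours in that order, had overlapping libraries. Per length SPARC led in every group. In senescent DMSO cells at 6 h FN1 came next after it, at 119 CPM per kb, and THBS1 next, at 87.3. After 24 h of GNF-7 THBS1, at 6.85 CPM per kb, stood below FN1 (49.7), THBS2 (34.9) and TNC (9.54). There BGN (0.116) and LUM (0.106) overlapped again, as did BGN and DCN in GNF-7 at 6 h, and no other neighbours did in any group.

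**Figure D1:**
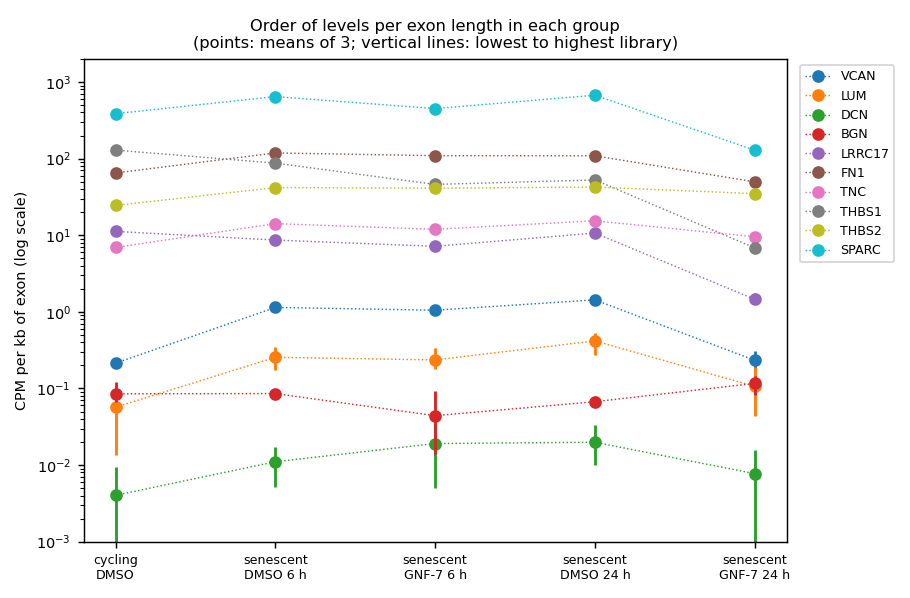
Level of each gene per kilobase of exon in the 5 groups, on a log axis. Points are means of 3 libraries, vertical lines run from the lowest to the highest library, and dotted lines only join the points of a gene. Libraries at 0 are drawn at the lower end of the axis. THBS1 goes from the next place after SPARC in cycling cells to below FN1, THBS2 and TNC after 24 h of GNF-7, and the 3 small proteoglycans stay at the bottom.

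Tests were run with the edgeR quasi-likelihood model over 18563 genes, with a gene called at a Benjamini-Hochberg adjusted p under 0.05. Of the 10 genes 8 passed the filter on low counts, and DCN and BGN did not. LUM passed only through the groups in which it was high, so it is left out of the counts that follow. Senescent against cycling cells in DMSO called 5 of the other 7 higher and 2 (THBS1 and LRRC17) lower, where 70.0% of all genes tested were called, 35.6% higher and 34.4% lower. GNF-7 at 6 h called 5 of the 7 lower, none higher and not VCAN or THBS2, against 39.3% of all genes called and 21.4% called lower (17.9% higher). GNF-7 at 24 h called 7 of 7 lower, against 58.9% called and 29.7% called lower (29.3% higher). At 24 h VCAN, THBS1, SPARC and LRRC17 were lower by at least 4-fold and FN1 by at least 2-fold, as were 0.496% and 3.92% of all genes. The median log2 fold change of the 7 was 0.77 in senescence, -0.25 with GNF-7 at 6 h and -2.38 at 24 h, against 0.06, 0.01 and 0.04 over all genes tested. The comparisons are not independent. Those of senescence, of GNF-7 at 6 h and of time in DMSO share the 3 senescent DMSO libraries at 6 h. Those of GNF-7 at 24 h and of time in DMSO share the 3 DMSO libraries at 24 h. The difference of GNF-7 effects and the comparison of 24 h GNF-7 with cycling cells reuse libraries of these comparisons.

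**Figure D2:**
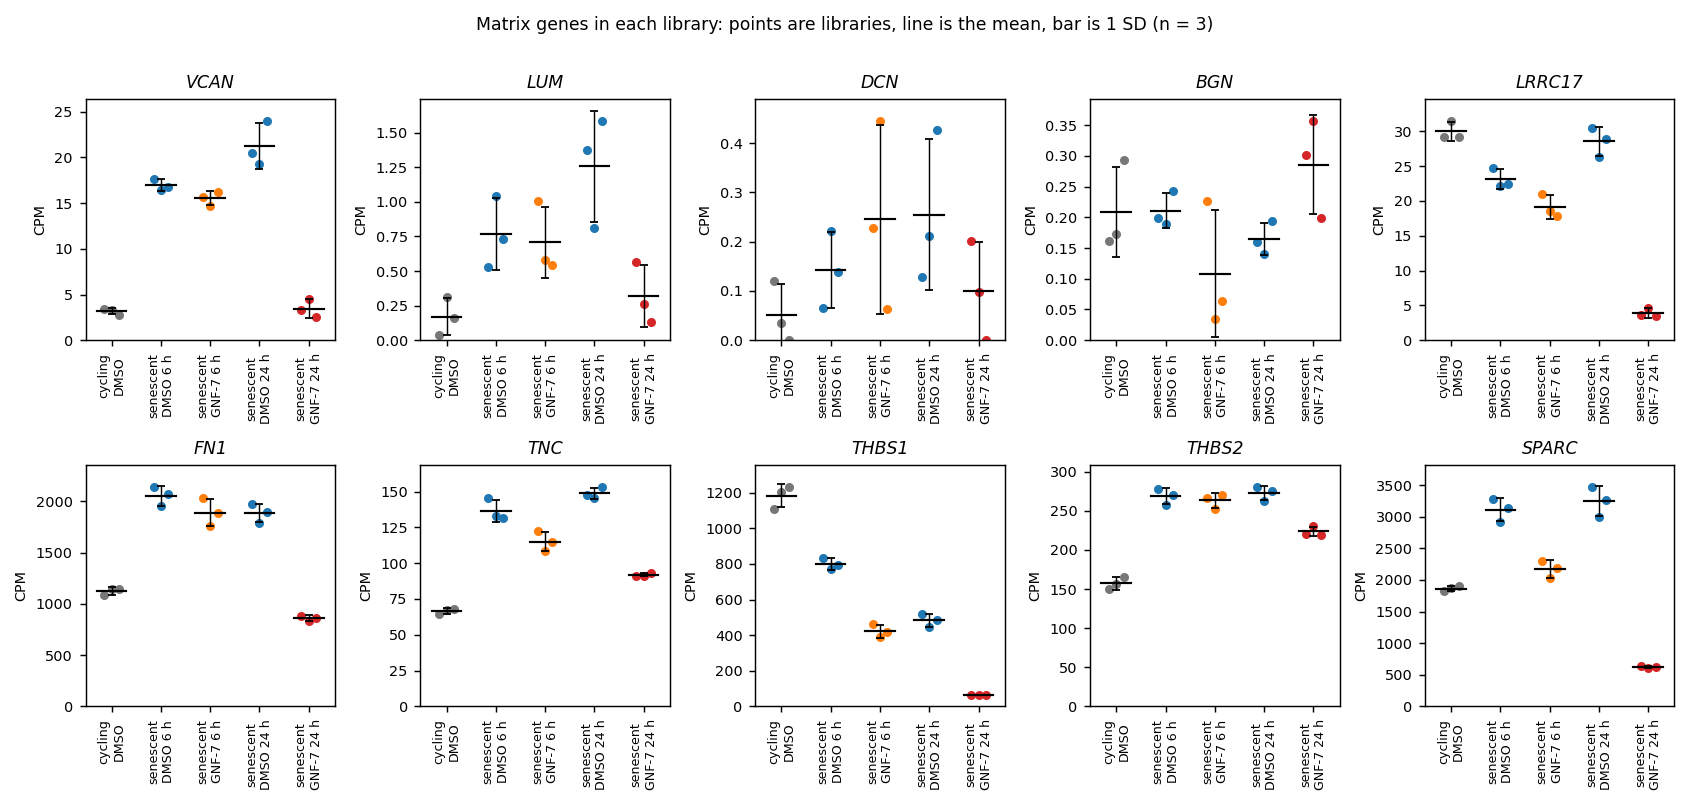
CPM of the 10 genes in each of the 15 libraries, 1 panel per gene with its own linear axis from 0. Points are libraries, the horizontal line is the mean of 3 and the bar is 1 SD. In senescent cells the GNF-7 libraries at 24 h (red) lie below the DMSO libraries at 24 h in 8 panels, while DCN overlaps. BGN lies above, at 9, 11 and 6 counts against 5, 4 and 5. LUM, DCN and BGN were near the detection limit, and differences in DCN and BGN were not detectable at this depth.

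VCAN (ENSG00000038427, GRCh38 chromosome 5, 83471465 to 83582303, plus strand) had the largest fitted rise of the 8 genes tested in senescence. It was at 3.42, 3.31 and 2.77 CPM in the 3 cycling libraries and at 17.7, 16.4 and 16.7 CPM in senescent DMSO libraries at 6 h. GNF-7 libraries at 6 h had 15.7, 14.7 and 16.3 CPM. At 24 h DMSO libraries had 20.5, 19.3 and 24.0 CPM and GNF-7 libraries 3.27, 4.55 and 2.56 CPM. Cycling cells and 24 h GNF-7 cells thus covered a similar low range, and the other 3 groups lay apart from them with no overlap. In senescence the log2 fold change was 2.42 (SE 0.127, edgeR adjusted p 4.79e-25), which is 5.37-fold. With GNF-7 it was -0.12 at 6 h (SE 0.103, edgeR adjusted p 0.373, 95% interval -0.323 to 0.0794) and -2.61 at 24 h (SE 0.122, edgeR adjusted p 5.02e-27), or 6.12-fold lower. The effect at 24 h differed from that at 6 h by -2.49 (SE 0.161, edgeR adjusted p 1.28e-19), where 30.8% of all genes were called for such a difference, 12.8% higher and 18.0% lower. VCAN-AS1, which overlaps VCAN on the other strand, had no count in any library.

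Set against cycling cells, VCAN in senescent cells after 24 h of GNF-7 was at a log2 difference of 0.14 (95% interval -0.165 to 0.438, edgeR adjusted p 0.414). In that comparison 80.3% of all genes were called. The sign turned without 24 h GNF-7 replicate 2 (-0.12), and VCAN was called higher when only genes with a mean of at least 5 CPM were fitted (0.39, edgeR adjusted p 0.0207).

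The 3 small leucine-rich proteoglycans were near the detection limit of these libraries. LUM (chromosome 12, 91102629 to 91111831, minus strand) had 1, 9 and 5 counts in cycling libraries and 16, 33 and 21 in senescent DMSO libraries at 6 h. It had 31, 17 and 17 counts with GNF-7 at 6 h, 43, 23 and 41 in DMSO at 24 h and 17, 8 and 4 with GNF-7 at 24 h. The senescent DMSO libraries lay above the cycling ones, and at 24 h the GNF-7 libraries lay below the DMSO ones. Its log2 fold change was 2.10 in senescence (SE 0.536, edgeR adjusted p 4.51e-04), -0.11 with GNF-7 at 6 h (SE 0.433, edgeR adjusted p 0.868) and -1.96 with GNF-7 at 24 h (SE 0.463, edgeR adjusted p 2.25e-04). Since LUM passed the filter only through the groups in which it was high, these p-values are not evidence of a change.

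Single libraries moved the values of LUM. In senescence it was 2.79 without cycling replicate 2, the library with 9 counts. At 24 h it was -2.65 without GNF-7 replicate 1, the library with 17 counts. The difference of its GNF-7 effects between 24 h and 6 h, -1.84 (edgeR adjusted p 0.0206), was no longer called without senescent DMSO 6 h replicate 1 (-1.64), GNF-7 6 h replicate 1 (-1.51), DMSO 24 h replicate 3 (-1.65) or GNF-7 24 h replicate 3 (-1.48). It was -2.53 without GNF-7 24 h replicate 1.

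DCN (chromosome 12, 91140484 to 91183123, minus strand) had 3, 1 and 0 counts in cycling libraries and between 2 and 13 in the libraries of senescent DMSO cells and of 6 h GNF-7 cells. With GNF-7 at 24 h it had 6, 3 and 0 counts, and a library with 0 counts could hold up to 3 at the 95% level. BGN (chromosome X, 153494939 to 153509554, plus strand) had 4, 5 and 9 counts in cycling cells and 1 to 11 in the senescent groups. Differences in DCN and BGN were not detectable at this depth.

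LRRC17 (ENSG00000128606, chromosome 7, 102912991 to 102944949, plus strand) was unlike VCAN in senescence and like it after 24 h of GNF-7. Its libraries were at 29.2, 31.5 and 29.3 CPM in cycling cells and at 24.8, 22.2 and 22.4 CPM in senescent DMSO cells at 6 h. GNF-7 at 6 h gave 21.1, 18.6 and 17.8 CPM. At 24 h DMSO cells were at 30.5, 26.3 and 28.9 CPM and GNF-7 cells at 3.61, 4.68 and 3.42 CPM. Every 24 h GNF-7 library was far below all 12 other libraries, which spanned less than a 2-fold range. In senescence the log2 fold change was -0.38 (SE 0.078, edgeR adjusted p 2.08e-05; -0.24 scaled by total counts, where the all-gene median is 0.20 in place of 0.06, and -0.23 among genes of at least 5 CPM) and -0.27 with GNF-7 at 6 h (SE 0.080, edgeR adjusted p 4.74e-03). The latter call was lost without senescent DMSO 6 h replicate 1 (-0.22, edgeR adjusted p 0.0520). At 24 h it was -2.87 (SE 0.098, edgeR adjusted p 8.70e-35), or 7.31-fold lower, a difference of -2.60 from the 6 h effect (SE 0.129, edgeR adjusted p 1.97e-25). FBXL13 lies on the other strand and shares 317 exon bases with LRRC17. It had 4 to 26 counts in any library, against 103 to 956 for LRRC17.

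The bases upstream of the LRRC17 start are shown because it had the largest fitted difference between the 24 h and 6 h effects. The sequence is RefSeq's (GRCh38.p14, chr7:102912900-102912990, plus strand, 100 to 10 bases before the start), 5′ to 3′, and it holds none of the 5 motifs searched, so it has no capitals.
LRRC17: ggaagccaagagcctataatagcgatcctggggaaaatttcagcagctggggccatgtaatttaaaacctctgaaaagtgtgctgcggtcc
The motifs, searched on both strands in the 300 bases around each start, were TGANTCA (AP-1, in 7.71% of 35116 promoters), TGACGTCA (the cAMP response element, CRE, 1.85%), TGATGNAA (the core of the C/EBP-ATF composite site, 3.62%), GGAATG (TEAD, 14.03%) and TATAAA (the box that marks many core promoters, 11.5%). RefSeq promoters were matched for 8 of the 10 genes, all but LUM and DCN. Distances are from the RefSeq start, which equals the GENCODE start for THBS1 and lies 9 (LRRC17) to 279 (VCAN) bases inside the GENCODE gene for the other 7. Among these 8, TGACGTCA was found for FN1, GGAATG for THBS1, THBS2 and SPARC, and TATAAA for THBS2. No window held TGANTCA or TGATGNAA. A match is a run of letters, not a measured binding site.

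FN1 (ENSG00000115414, chromosome 2, 215360440 to 215436172, minus strand), the adhesive scaffold of the matrix, rose in senescence and fell below the cycling level after 24 h of GNF-7. It was at 1084, 1145 and 1146 CPM in cycling libraries and at 2140, 1950 and 2070 CPM in senescent DMSO libraries at 6 h. GNF-7 libraries at 6 h, at 2028, 1757 and 1886 CPM, overlapped those of DMSO. At 24 h DMSO cells were at 1971, 1791 and 1894 CPM and GNF-7 cells at 885, 831 and 864 CPM, lower than every cycling library. The log2 fold change was 0.87 in senescence (SE 0.043, edgeR adjusted p 6.93e-19), -1.13 with GNF-7 at 24 h (SE 0.043, edgeR adjusted p 9.28e-22) and -0.39 for 24 h GNF-7 against cycling cells (SE 0.043, edgeR adjusted p 5.83e-10). At 6 h it was -0.12 (SE 0.042, edgeR adjusted p 0.0234). FN1 was not called at 6 h when the fit held only both groups compared (-0.11) or only genes with a mean of at least 5 CPM (-0.067). Nor was it called when 1 of 4 libraries was left out: senescent DMSO 6 h replicate 1 (-0.090), its replicate 3 (-0.12), GNF-7 6 h replicate 2 (-0.056) or its replicate 3 (-0.12). The difference of the 2 effects was -1.01 (SE 0.060, edgeR adjusted p 1.78e-15). The table counts all FN1 reads together, so splice forms were not analysed here.

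Of the promoters searched, that of FN1 holds the palindrome TGACGTCA, 183 to 176 bases before the RefSeq start, which lies 104 bases inside the GENCODE gene. The 50 bases around it (RefSeq, GRCh38.p14, chr2:215436219-215436268, minus strand), which 1 annotated exon overlaps in GENCODE, are given with that motif in capitals.
FN1: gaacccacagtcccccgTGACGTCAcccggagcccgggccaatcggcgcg

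TNC (ENSG00000041982, chromosome 9, 115019578 to 115118257, minus strand), which loosens the attachment of cells to fibronectin, moved in steps. Cycling libraries were at 64.5, 67.2 and 68.3 CPM and senescent DMSO libraries at 6 h at 145, 133 and 131 CPM. GNF-7 gave 122, 109 and 114 CPM at 6 h. At 24 h the values were 147, 145 and 153 CPM in DMSO and 91.2, 91.2 and 93.2 CPM in GNF-7. Within each time the GNF-7 libraries lay below the DMSO libraries, and all stayed above the cycling ones. The log2 fold change was 1.03 in senescence (SE 0.045, edgeR adjusted p 7.84e-30), -0.25 with GNF-7 at 6 h (SE 0.043, edgeR adjusted p 3.34e-06), -0.69 at 24 h (SE 0.044, edgeR adjusted p 1.13e-21) and 0.46 for 24 h GNF-7 against cycling cells (SE 0.046, edgeR adjusted p 5.05e-14). The effects at 24 h and 6 h differed by -0.45 (SE 0.061, edgeR adjusted p 1.85e-08).

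THBS1 (ENSG00000137801, chromosome 15, 39581079 to 39599466, plus strand) was lower in each successive comparison. It was at 1109, 1205 and 1232 CPM in cycling libraries and at 834, 771 and 794 CPM in senescent DMSO libraries at 6 h. GNF-7 at 6 h gave 461, 388 and 416 CPM. At 24 h DMSO cells were at 520, 445 and 482 CPM and GNF-7 cells at 63.5, 61.9 and 62.8 CPM. Libraries of the 2 groups did not overlap in any of these comparisons, and the DMSO group at 24 h also lay below that at 6 h. The log2 fold change was -0.56 in senescence (SE 0.061, edgeR adjusted p 4.71e-07), -0.92 with GNF-7 at 6 h (SE 0.062, edgeR adjusted p 4.51e-09) and -2.94 with GNF-7 at 24 h (SE 0.070, edgeR adjusted p 1.10e-15), the last 7.69-fold lower. The effects differed by -2.02 between the times (SE 0.092, edgeR adjusted p 4.25e-11). In DMSO alone THBS1 fell by 0.73 from 6 h to 24 h on the log2 scale (edgeR adjusted p 4.30e-07), where 18.5% of all genes were called. Against cycling cells, 24 h GNF-7 cells were 18.9-fold lower (-4.24, SE 0.073, edgeR adjusted p 3.24e-18). FSIP1 and a further gene overlap THBS1 exons on the other strand and had at most 36 counts in a library, against 1890 or more for THBS1.

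THBS2 (ENSG00000186340, chromosome 6, 169215780 to 169254044, minus strand), its close relative, rose in senescence and stayed high. Cycling libraries were at 150, 156 and 166 CPM, and senescent DMSO libraries at 278, 257 and 271 CPM at 6 h and 281, 263 and 275 CPM at 24 h. GNF-7 libraries were at 267, 253 and 271 CPM at 6 h and at 221, 230 and 220 CPM at 24 h. The 24 h GNF-7 libraries lay below all other senescent libraries and above all cycling ones. The log2 fold change was 0.77 in senescence (SE 0.040, edgeR adjusted p 2.45e-26) and -0.29 with GNF-7 at 24 h (SE 0.039, edgeR adjusted p 3.18e-09), or 1.22-fold lower (-0.19 among genes of at least 5 CPM). At 6 h it was -0.03 (95% interval -0.103 to 0.0482, edgeR adjusted p 0.618), and its sign turned when genes under a mean of 5 CPM were dropped (0.025) or GNF-7 6 h replicate 2 was left out (0.014). The effects differed by -0.26 between the times (SE 0.055, edgeR adjusted p 1.23e-04).

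The ratio of THBS1 to THBS2 within a library does not depend on how libraries are scaled. It was taken up after the values of both genes had been seen, so its tests add no independent evidence. Cycling cells had a ratio per kilobase of exon of 5.27 ± 0.121 (SD, n = 3), senescent DMSO cells at 6 h one of 2.09 ± 0.0270, and it was 1.12 ± 0.0773 with GNF-7 at 6 h. At 24 h it was 1.24 ± 0.0558 in DMSO and 0.196 ± 0.00724 in GNF-7. Only the 24 h GNF-7 libraries had more THBS2 than THBS1 per length. The log2 ratio differed by -1.34 in senescence, by -0.90 with GNF-7 at 6 h, by -2.65 with GNF-7 at 24 h and by -0.76 between DMSO at 24 h and at 6 h. In each of these 4 comparisons the 2 groups did not overlap and the exact permutation test, two-sided, gave p = 0.1 (adjusted 0.1). With 3 libraries a group no smaller p can be reached.

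**Figure D3:**
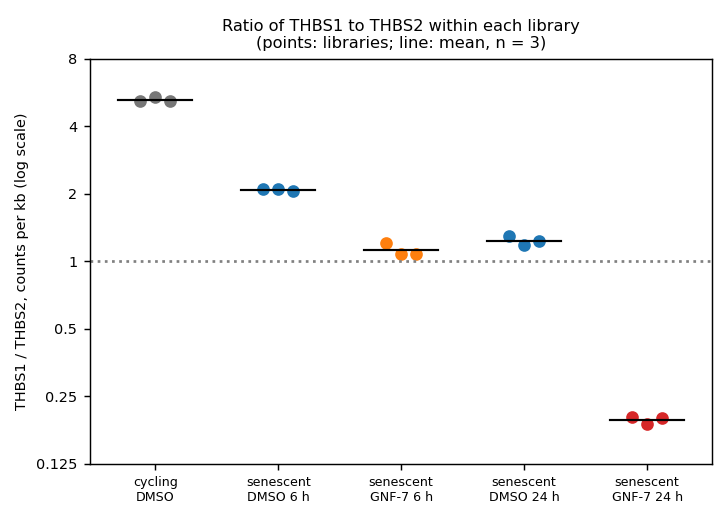
Ratio of THBS1 to THBS2 counts per kilobase of exon in each library, on a log axis. Points are libraries, lines are means of 3 and the dotted line marks equal levels. The ratio lies at 5.18 to 5.41 in cycling cells and at 0.188 to 0.201 after 24 h of GNF-7.

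The upstream sequences of this pair are shown because the genes diverged in these cells. Both are RefSeq's (GRCh38.p14), with GGAATG on either strand, the TEAD motif, in capitals. THBS1 is chr15:39580979-39581078, plus strand, the 100 bases before the start, with 1 match at 46 to 41 bases before it. THBS2 is chr6:169253897-169253956, minus strand, a stretch of 60 bases upstream of the RefSeq start, with 1 match on each strand. That start lies 198 bases inside the gene as GENCODE draws it, so the stretch is intronic there.
THBS1: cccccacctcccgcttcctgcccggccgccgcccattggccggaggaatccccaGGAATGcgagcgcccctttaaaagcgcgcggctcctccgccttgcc
THBS2: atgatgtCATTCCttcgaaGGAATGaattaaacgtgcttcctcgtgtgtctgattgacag
Neither printed stretch overlaps an exon in GENCODE release 29. SPARC also holds the motif, 17 to 12 bases before its RefSeq start. Genes that hold it include the one with the smallest 24 h change of the 8 and 2 of those with large ones. Whether the motif bears on these changes was not tested.

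SPARC (ENSG00000113140, chromosome 5, 151661096 to 151687165, minus strand), a collagen-binding matricellular protein, was the most abundant of the 10 per length in every group. It was at 1830, 1866 and 1897 CPM in cycling libraries and at 3282, 2918 and 3143 CPM in senescent DMSO libraries at 6 h. GNF-7 at 6 h gave 2301, 2026 and 2190 CPM. At 24 h DMSO cells were at 3472, 2999 and 3270 CPM and GNF-7 cells at 638, 602 and 628 CPM. The 24 h GNF-7 libraries were below all others, while the 6 h GNF-7 libraries stood between cycling and senescent DMSO cells. The log2 fold change was 0.74 in senescence (SE 0.052, edgeR adjusted p 6.74e-11), -0.52 with GNF-7 at 6 h (SE 0.051, edgeR adjusted p 7.05e-08) and -2.38 at 24 h (SE 0.054, edgeR adjusted p 5.97e-19), or 5.21-fold lower. The effects differed by -1.86 (SE 0.073, edgeR adjusted p 5.02e-14), and 24 h GNF-7 cells were 2.99-fold below cycling cells (-1.58, SE 0.053, edgeR adjusted p 1.52e-16).

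Set against cycling cells, senescent cells after 24 h of GNF-7 thus differed gene by gene. THBS1, LRRC17, SPARC and FN1 were called lower and THBS2 and TNC higher, where 37.5% of all genes were called lower and 42.7% higher. VCAN and LUM were not called, LUM with a wide interval of -0.331 to 2.02. Fitting only genes with a mean of at least 5 CPM moved the median of all genes here from 0.12 to 0.01, and gave -0.13 for FN1, 0.72 for TNC and 0.77 for THBS2, each still called. The groups in this comparison differ in senescence, treatment and time at once.

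**Figure D4:**
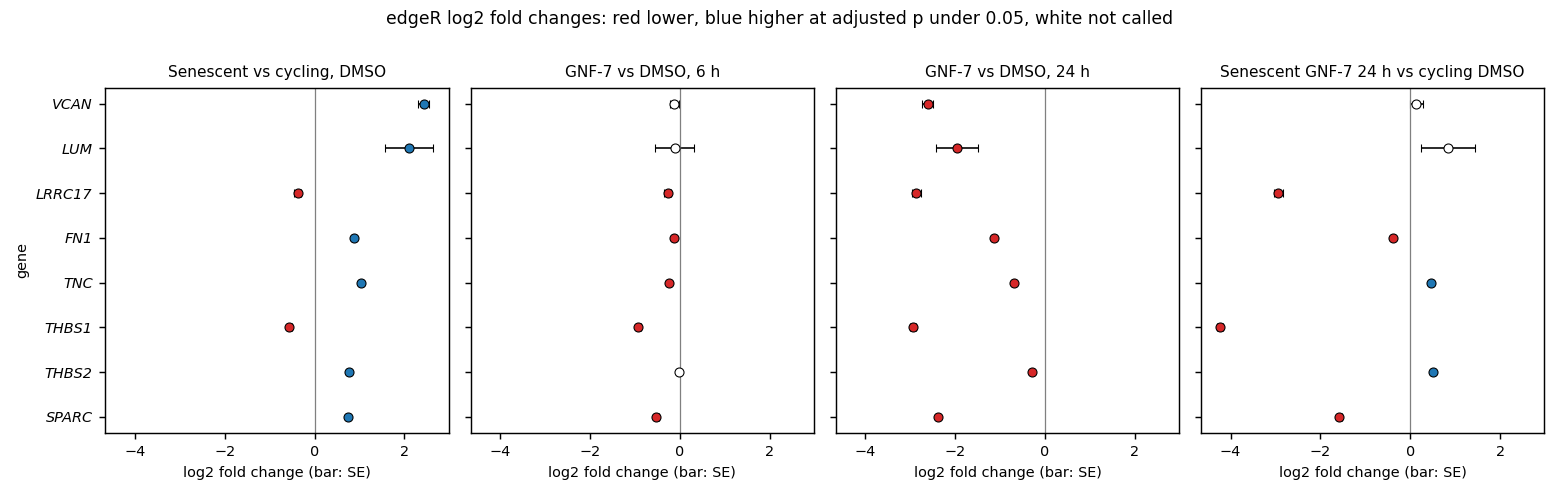
Log2 fold changes from edgeR for the 8 genes tested, in 4 comparisons, with SE bars. Red points are called lower, blue points called higher and white points not called at an adjusted p under 0.05. All 8 points are red for GNF-7 at 24 h, from -0.29 for THBS2 to -2.94 for THBS1, and 3 are white at 6 h. LUM, red at 24 h and white at 6 h, passed the filter only through the groups in which it was high. Of all genes tested 58.9% were called at 24 h, 29.7% lower, and 39.3% were called at 6 h.

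From 6 h to 24 h in DMSO alone the largest change called was that of THBS1, given above. Of all genes 9.26% were called higher and 9.29% lower. From 6 h to 24 h VCAN (0.33, edgeR adjusted p 0.0160), LRRC17 (0.31, edgeR adjusted p 2.71e-03) and TNC (0.12, edgeR adjusted p 0.0357) were called higher, and FN1 (-0.12, edgeR adjusted p 0.0380) lower. SPARC was at 0.06, THBS2 at 0.02 and LUM at 0.70 (edgeR adjusted p 0.263), none of them called. Scaling by total counts moved the median of all genes in this comparison from 0.01 to -0.10 and the share of called genes that were higher from 49.93% to 12.49%. Under that scaling VCAN (0.22), LRRC17 (0.20) and TNC (0.012) were not called and SPARC (-0.050) and THBS2 (-0.087) changed sign, while FN1 was at -0.23 and THBS1 at -0.84. The call for VCAN was lost without senescent DMSO 6 h replicate 2 (0.30) or 3 (0.32) or DMSO 24 h replicate 3 (0.23). That for TNC was lost without DMSO 6 h replicate 2 (0.10) or 3 (0.097) or DMSO 24 h replicate 1 (0.13) or 3 (0.10), and also with mitochondrial genes out of the scaling (0.11) or with no filter (0.11). That for FN1 was lost without DMSO 6 h replicate 1 (-0.091) or 3 (-0.12) or DMSO 24 h replicate 2 (-0.086) or 3 (-0.13).

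The 8 genes did not share 1 pattern. Patterns were compared by the root mean square difference of centred log2 CPM over the 15 libraries, which is a description with no test. TNC and THBS2 were the closest pair, at 0.164, and LUM and THBS1 the farthest, at 1.75. THBS1 and THBS2 were 1.55 apart. Among all genes with a mean of at least 5 CPM, the one nearest to THBS1 was IL7R (0.331), followed by CCN2 (0.403), which encodes the matricellular protein CTGF. The nearest to LRRC17 was MYBL1 (0.132), to SPARC GPRC5A (0.177) and CDH11 (0.200), to FN1 SLC1A3 (0.126) and to VCAN SLC2A12 (0.370). TNC was nearest to B3GAT3 (0.0625), which encodes an enzyme that builds the linker of proteoglycan sugar chains, and THBS2 to TM7SF3 (0.0624).

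Other genes of matrix biology were read from 7 lists. Unlike LUM above, no gene was left out of them for passing the filter only through the groups in which it was high. Some had wide errors in senescence, such as XYLT1 (4.13, SE 1.03) and STAB1 (4.90, SE 1.76), both called, and SPARCL1 (3.14, SE 2.01), not called. The counts of each list are to be read beside the shares of all genes called: 35.6% higher and 34.4% lower in senescence, 17.9% higher and 21.4% lower with GNF-7 at 6 h, and 29.3% higher and 29.7% lower at 24 h. Matrix receptors were called higher in 11 of 18 genes tested in senescence and lower in 1, and with GNF-7 lower in 10 and higher in 1 at 6 h and lower in 12 and higher in 0 at 24 h (median log2 fold change 0.47, -0.22 and -0.44). ITGA5, the alpha subunit of the classical fibronectin receptor, fell at 24 h from 752 ± 16.1 to 404 ± 6.24 CPM (SD, n = 3, -0.90). SDC4, a heparan sulfate proteoglycan that acts with it, fell from 273 ± 19.7 to 101 ± 0.654 CPM (-1.44). LRP1, an endocytic receptor that clears thrombospondins, rose in senescence from 151 ± 4.98 to 667 ± 39.0 CPM (2.14) and was at -0.08 with GNF-7 at 24 h (edgeR adjusted p 0.0526).

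Enzymes that build chondroitin and dermatan sulfate, the sugar chains of versican and of decorin and biglycan, were called higher in 14 and lower in 3 of 21 genes in senescence (median 0.55). With GNF-7 17 were lower and 2 higher at 6 h (median -0.32), and 15 lower and 4 higher at 24 h (median -0.64). DSEL, an epimerase-like enzyme of dermatan sulfate, rose in senescence from 9.34 ± 0.186 to 68.1 ± 2.20 CPM (2.86) and fell with GNF-7 at 24 h from 61.8 ± 4.10 to 29.9 ± 1.43 CPM (-1.05). CHPF2, a chondroitin polymerising factor, fell with GNF-7 at 24 h from 238 ± 7.30 to 106 ± 4.53 CPM (-1.16), and CHST11, a chondroitin sulfotransferase, from 57.5 ± 1.53 to 24.7 ± 1.31 CPM (-1.22).

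TGF-beta ligands, latent complex and response genes were called higher in 14 and lower in 1 of 18 genes in senescence (median 0.44). With GNF-7 9 were lower and 4 higher at 6 h (-0.15), and 10 lower and 5 higher at 24 h (-0.44). TGIF1, a co-repressor of SMAD proteins, rose at 24 h from 34.1 ± 0.669 to 101 ± 2.53 CPM (1.56) and had already risen at 6 h (1.41). LTBP3, a latent TGF-beta binding protein, rose in senescence from 128 ± 1.25 to 340 ± 10.9 CPM (1.41).

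Other matricellular proteins moved both ways. Of 17 tested 9 were higher and 5 lower in senescence (median 0.93), 3 higher and 5 lower with GNF-7 at 6 h (0.12), and 7 higher and 9 lower at 24 h (-0.37). TGFBI, a secreted protein induced by TGF-beta, fell with GNF-7 at 24 h from 54.6 ± 3.56 to 16.1 ± 0.512 CPM (-1.76), and FSTL1, a secreted relative of SPARC, from 474 ± 20.7 to 204 ± 3.15 CPM (-1.21). SPOCK1, a testican proteoglycan with a SPARC-like domain, rose in senescence from 43.4 ± 2.96 to 213 ± 7.63 CPM (2.29) and was lower by a small amount with GNF-7 at 24 h (-0.44).

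Hyaluronan and hyalectan genes were called higher in 5 and lower in 3 of 12 in senescence (median 0.25), higher in 1 and lower in 6 with GNF-7 at 6 h (-0.19) and higher in 3 and lower in 7 at 24 h (-0.66). HSPG2, which is of neither kind, was counted in this list (0.50 in senescence, -0.17 and -0.57 with GNF-7 at 6 h and 24 h). CEMIP, which takes part in the breakdown of hyaluronan, rose in senescence from 36.4 ± 0.244 to 122 ± 3.56 CPM (1.75) and rose with GNF-7 at 24 h from 63.2 ± 1.40 to 186 ± 8.30 CPM (1.56). Its transmembrane relative CEMIP2 fell with GNF-7 from 92.5 ± 5.13 to 28.9 ± 1.27 CPM at 24 h (-1.68). Of 14 other small leucine-rich proteoglycan genes 4 passed the filter, 2 of them higher in senescence, and with GNF-7 at 24 h 1 was higher and 2 lower. The higher one was ECM2 (4.32, SE 0.310), and the lower ones were PRELP (-2.06, SE 0.505) and TSKU. ECM2 and PRELP had a mean under 5 CPM. TSKU, a secreted member of this family, was at 78.9 ± 2.39 and 71.8 ± 3.06 CPM in DMSO and GNF-7 at 24 h (-0.14, edgeR adjusted p 9.84e-03). Of 9 proteases of the list that cuts proteoglycans 4 passed, with 3 higher in senescence, and 0 higher and 2 lower with GNF-7 at 24 h. These were HTRA1 (-0.38) and BMP1 (-0.29). The median of each list is to be read beside that of all genes tested, given above, and no list was tested as a set.

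**Figure D5:**
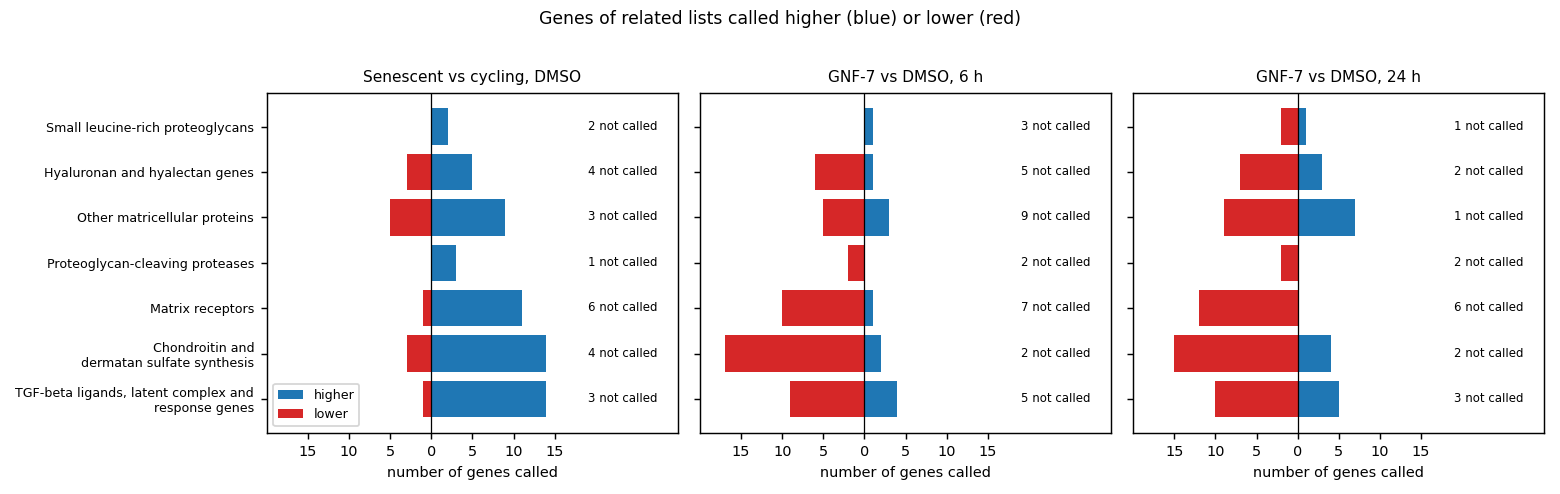
Number of genes of 7 related lists called higher (blue bars, to the right) or lower (red bars, to the left) in 3 comparisons, with the number not called at the right. Most receptor, sugar chain and TGF-beta genes that were called are blue in senescence and red with GNF-7 at both times.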

How the data were processed

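The authors deposited 1 table of raw counts per Ensembl gene, 1 column per library, without normalization. Per the submitters' processing notes, bcl2fastq 2.20.0.422, STAR 2.7.9a, featureCounts 1.5.1 and GRCh38 were used, and per the labels' protocols the kit was a stranded mRNA kit. The strand setting and annotation release are not given in the sources used here. Columns were matched by library name. Of 60673 rows 3 did not hold a complete gene entry and were dropped. Symbols were found for 60400 genes. Libraries of each group differed by more than counting noise (chi-square test), so none is a second copy of another, which does not show separate cultures. Deviations of same-numbered libraries correlated over 0.1 in each of 3 pairs for GNF-7 and DMSO at 24 h (0.110 to 0.154). The same held for GNF-7 at 6 h and GNF-7 at 24 h (0.126 to 0.254). Every other pair of senescent groups had 1 or 2 of 3 over 0.1. The labels state no such pairing. The main fit and the ratio test were unpaired, and the replicate block was run only as an alternative.

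Counts were filtered by filterByExpr and scaled by TMM, and 1 edgeR quasi-likelihood fit (edgeR 4.0.16, R 4.3.3, robust) over 15 libraries with a group term gave 6 contrasts, adjusted by Benjamini-Hochberg over 18563 genes. The biological coefficient of variation was 4.64%. SE is the log2 fold change divided by the square root of F, and 95% intervals are normal. Floors cover counting error only, since reads carry no molecular identifiers. Alternatives used RLE scaling, total counts, scaling without mitochondrial genes, 2 other filters, DESeq2 1.42.0, limma voom (3.58.1), fits of the compared groups, a replicate block and fits without each library. The THBS1 to THBS2 ratio was chosen after seeing the data. On simulated counts for GNF-7 at 24 h (17424 genes, 200 changed 2-fold) edgeR recovered 179 with 16 false calls. In the data 58.9% of genes were called at 24 h, a far larger part than was changed in the simulation. Its recovery and false calls therefore do not give the error rates of these data.

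The genes, lists and rules were chosen with earlier results of these data known. Genes of the related lists were named by rule: the 2 with the smallest p for GNF-7 at 24 h and the 1 for senescence, at a mean of at least 5 CPM. A gene that the rule names is not reported here. For patterns the 3 nearest genes were found, of which the first or first 2 are given.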

Additional observations from a re-analysis of the deposited data

Results flagged for a closer look

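By edgeR's interaction test, the GNF-7 effects at the 2 times were unequal for 8 genes, with lower values at 24 h. For LUM, which passed the filter only through the groups in which it was high, that call is lost without any 1 of 4 libraries. The difference in log2 fold change was -2.60 for LRRC17, -2.49 for VCAN, -2.02 for THBS1, -1.86 for SPARC, -1.84 for LUM, -1.01 for FN1, -0.45 for TNC and -0.26 for THBS2. Of all genes tested 30.8% were called for such a difference and 18.0% toward lower values. The order of these genes by this difference is not their order by the 6 h effect, where THBS1 (-0.92) and SPARC (-0.52) led and VCAN (-0.12) was not called.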

How the results depend on the processing

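Of 48 values (8 genes in 6 comparisons) 36 kept their direction and their side of the threshold under every alternative that could be fitted. Of 760 values over all alternatives 723 did, 27 lost a call, 1 gained one and 9 changed sign. Those lost or gained are given beside the genes, and no GNF-7 effect at 24 h and no senescence effect was among them. The signs that changed were of values that had not been called: THBS2 between DMSO times with total counts (-0.087) or with 1 library left out (-0.0060 to 0.051), SPARC with total counts (-0.050), THBS2 with GNF-7 at 6 h under the filter at 5 CPM (0.025), and, over the fits that left out 1 library, LUM at 6 h (-0.45 to 0.17), THBS2 at 6 h (-0.060 to 0.014) and VCAN for 24 h GNF-7 against cycling cells (-0.12 to 0.31). For that last comparison the filter at 5 CPM called 9815 genes in place of 14903, since it tests fewer genes, and LUM could not be fitted under it. The THBS1 to THBS2 log2 ratio for GNF-7 at 24 h ran from -2.68 to -2.62 with 1 library left out, an alternative chosen after seeing the data. With the replicate block 7481 in place of 7286 genes were called for GNF-7 at 6 h and 11031 in place of 10940 at 24 h, and no call of the 8 genes changed. Among senescent groups 12 of 18 same-numbered pairs of libraries deviated together (correlation over 0.1), against 3 of 36 with different numbers, and 0 of 12 pairs with cycling cells did. Over protein-coding genes alone the mitochondrial share was 3.95%, 10.9%, 12.8%, 16.0% and 21.2% in the 5 groups. Depth limits DCN, BGN and LUM.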
